A study of Homo sapiens with 26 samples.

Results

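AsPC-1 cells in which both promoters of HNF4A were repressed (sgDual, 4 libraries) were compared with AsPC-1 cells in which the P1 promoter alone was repressed (sgP1, 4 libraries). These 8 libraries are all the sgDual and sgP1 libraries among the 26 of the study, and they were chosen by the genotype in their labels. AsPC-1 is an established human pancreatic ductal adenocarcinoma line. Repression was by CRISPR interference, in which a guide RNA brings an inactive Cas9 to a promoter and lowers transcription from it. The sgDual group holds guides sgDual2 and sgDual3, and the sgP1 group holds guides sgP1E and sgP1J, with 2 libraries of each guide. AsPC-1 libraries with a control guide (sgNC, 2 libraries) or with guides against the P2 promoter (sgP2, guides sgP2D and sgP2G, 4 libraries) give the background levels. All groups grew in the same serum-supplemented medium, and for AsPC-1 the labels name no added drug beyond its antibiotic. The labels do not say whether the cells of a guide were a pool or 1 clone, how long repression lasted, or whether replicate libraries came from separate cultures. The p-values therefore measure only the spread between these libraries, which may be technical, and libraries of 1 guide share that guide.

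HNF4A encodes HNF4α, a nuclear receptor that activates genes of differentiated epithelium in liver, gut and pancreas. Transcripts from its P1 and P2 promoters code for isoforms with different N-terminal ends, and P2 isoforms lack the activation domain at the N-terminal end of P1 isoforms. In pancreatic cancer, HNF4A expression is a known feature of the classical, gland-forming subtype. The contrast of sgDual with sgP1 asks what changes when repression of P2 is added to repression of P1.

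HNF4A (ENSG00000101076, chromosome 20, 44355700 to 44434596, plus strand, GRCh38) was examined first, because it checks the labels. The GENCODE transcript starts fall into 2 groups. The one further upstream, at P2, has 5 transcripts with starts between 44355700 and 44355805, and the one at P1 has 4 with starts between 44401270 and 44401301, 45.6 kb further on. Both promoters are shown because they are the labelled targets of repression. The sequences are 300 bases of the plus strand, from 250 before to 50 after a RefSeq start (GRCh38.p14), written 5′ to 3′ in lower case with no part capitalised.
HNF4A P2 promoter, chr20:44355449-44355748: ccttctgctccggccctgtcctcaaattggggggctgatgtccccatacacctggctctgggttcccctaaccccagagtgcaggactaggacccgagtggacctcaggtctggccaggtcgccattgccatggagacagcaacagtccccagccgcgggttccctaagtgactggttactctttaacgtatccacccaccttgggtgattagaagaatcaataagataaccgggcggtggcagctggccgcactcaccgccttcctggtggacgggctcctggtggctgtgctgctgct
HNF4A P1 promoter, chr20:44400989-44401288: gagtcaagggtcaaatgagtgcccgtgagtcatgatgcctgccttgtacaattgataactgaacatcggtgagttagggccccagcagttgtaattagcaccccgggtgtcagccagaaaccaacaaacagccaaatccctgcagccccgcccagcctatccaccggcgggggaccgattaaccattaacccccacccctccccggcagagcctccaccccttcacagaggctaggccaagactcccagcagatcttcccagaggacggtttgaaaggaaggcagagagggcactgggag

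HNF4A was nearly lost in sgDual, while the sgP1 libraries lay between it and the control guide. Levels are counts per 1000000 (CPM), which are reads per gene divided by the scaled library size. With sgP1E, HNF4A was at 144 and 146 CPM in the pair of libraries, and with sgP1J at 118 and 109 CPM. With sgDual2 it was at 3.19 and 10.3 CPM, and with sgDual3 at 4.83 and 13.6 CPM. All 4 sgDual libraries were far below all 4 sgP1 libraries. The sgDual mean was 6.18% of the sgP1 mean, a log2 difference (the log2 of the fold change, sgDual over sgP1) of -4.01 (SE 0.35, adjusted p = 8.53e-06, edgeR's quasi-likelihood test with Benjamini-Hochberg adjustment). The difference was -4.19 against sgP1E alone and -3.84 against sgP1J alone. The control guide gave 206 and 220 CPM, and the 4 sgP2 libraries gave 76.8 to 93.9 CPM. The counts are per gene, so transcripts of P1 and P2 cannot be told apart in them.

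**Figure D1:**
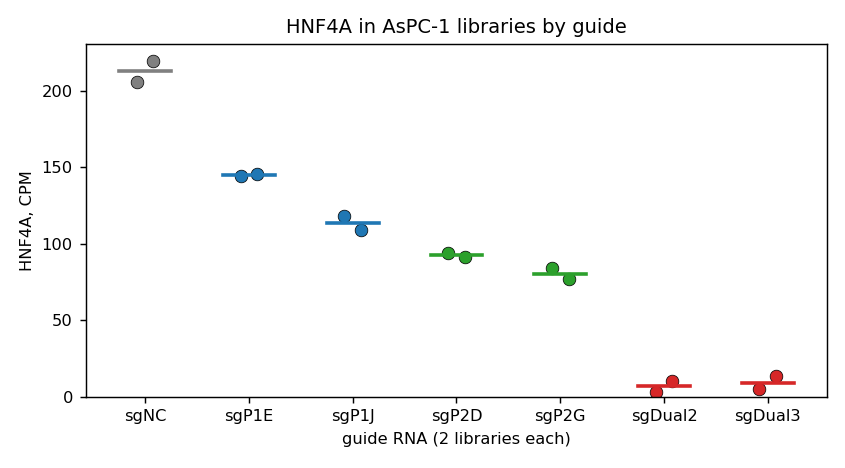
HNF4A in CPM for each of the 14 AsPC-1 libraries (points) by guide RNA, with the mean of the 2 libraries of a guide (bar). The sgDual libraries lie between 3.19 and 13.6 CPM, below every sgP1 library (109 to 146 CPM).

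Total counts ran from 30778972 to 50662077 in the sgP1 libraries, where sgP1E replicate 1 was the deepest, and from 34050581 to 37015709 in the sgDual libraries. Across the 16992 genes tested, the first principal component (45.6% of the variance) placed the 4 sgDual libraries apart from the other 10. The second component (13.9%) placed both sgP1E libraries apart from both sgP1J libraries. The mitochondrial share of counts was 8.12% to 9.07% in sgP1 and 9.23% to 9.88% in sgDual, without overlap. Epithelial markers of the labelled cell type summed to 9083 to 19806 CPM in sgP1 and 14093 to 18840 CPM in sgDual, although CLDN18 was at 0 counts in all 8 libraries. Fibroblast markers summed to 180 to 202 and 281 to 304 CPM, with 7 of 10 under 1 CPM in all 8 libraries. Nearly all of this sum was LUM, at 187 ± 10.0 CPM in sgP1 and 285 ± 9.80 CPM in sgDual (SD, n = 4 libraries each). Leukocyte markers summed to 17.6 to 41.4 and 57.9 to 83.7 CPM. LYZ, lysozyme, which gut and pancreatic tumour epithelium also makes, was most of that sum, 8 of 11 markers were under 1 CPM in all 8 libraries, and CD3E and MS4A1 were at 0. All 8 endothelial markers were under 1 CPM in all 8 libraries.

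**Figure D2:**
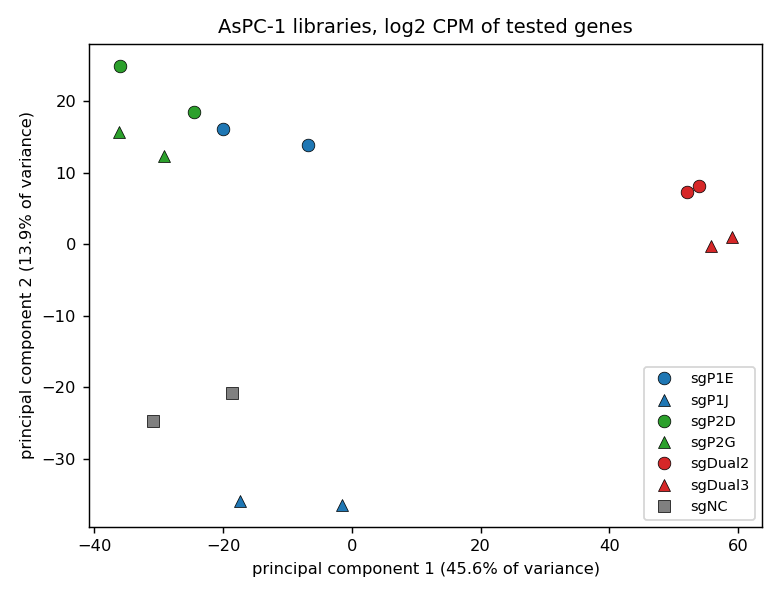
Principal components 1 and 2 of log2 CPM over 16992 genes for the 14 AsPC-1 libraries, coloured by target and shaped by guide. The sgDual libraries sit alone on the right (52.1 to 59.0 on component 1), and the sgP1E and sgP1J pairs are split along component 2.

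With the 4 libraries of a target taken as replicates, 6505 of 16992 genes (38.3%) differed between sgDual and sgP1 at an adjusted p under 0.05. Of all genes, 18.6% were higher in sgDual (3158) and 19.7% were lower (3347). The sgP1 guides themselves differed from each other in 2467 genes (14.5%), and the sgDual guides differed in 150 (0.883%). With the replicate number as a block these counts were 4616 and 558. The count between the sgP1 guides was 1535 without sgP1E replicate 1, 1492 without sgP1E replicate 2 and 1572 without sgP1J replicate 2, and that between the sgDual guides was 54 to 71 without any 1 of the 4 sgDual libraries. The contrast was therefore also fitted with each guide as a group, and a gene was called only if the mean of both sgDual guides differed from sgP1E and from sgP1J with the same sign. This call, which is meant below wherever genes rose or fell, was made for 4102 genes (24.1%), of which 2068 were higher (12.2% of all genes tested) and 2034 were lower (12%). Counts from gene lists below are to be read beside the shares of 12.2% and 12%, which several lists were near. Both guide contrasts use the same sgDual libraries, so they do not test each other. The log2 differences, SEs and adjusted p-values of single genes are from the fit by target, unless a guide or another fit is named. That fit takes the 4 libraries of a target as replicates. Against sgP1E 6178 genes passed and against sgP1J 7160, and 178 passed in both with opposite signs. Of the 4102 genes, 3973 had every sgDual library on 1 side of every sgP1 library. The call makes this likely, so it adds no separate support, and the share over all genes tested was not counted. Between sgP1E and sgP1J, 563 of the 4102 genes also differed, beside 14.5% of all genes tested. Of the 4102 genes, 630 were higher and 278 were lower by 1 or more on the log2 scale. Without sgP1E replicate 1, which leaves that guide with 1 library whose spread is assumed to be that of the others, 2469 genes were called.

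The 8 largest falls were those of HNF4A, MOGAT3, CLDN2, ANKS4B, PRODH2, ADIRF, HGD and PIK3AP1. MOGAT3, which makes diacylglycerol from monoacylglycerol (chromosome 7, 101195007 to 101201038), was at 19.9 and 17.4 CPM with sgP1E, at 10.13 and 9.30 CPM with sgP1J, and at 0.746 to 1.50 CPM in sgDual. Its log2 difference was -3.75 (SE 0.29, adjusted p = 1.25e-06). CLDN2, the pore-forming claudin of leaky epithelia (chromosome X, 106900164 to 106930861), was at 55.7 and 52.9 CPM with sgP1E, 29.9 and 23.4 CPM with sgP1J, and 3.44 to 5.86 CPM in sgDual. It fell by 3.27 on the log2 scale (SE 0.44, adjusted p = 0.000178). Both genes also differed between the sgP1 guides. The choice of the 8 falls required every sgDual library to be below every sgP1 library. CLDN2 overlaps MORC4 on the other strand, and the strand setting of the counting is not given in the sources used here.

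ANKS4B, a scaffold of the complex that links microvillus tips (chromosome 16, 21233665 to 21253845), stood at 55.7 and 56.3 CPM with sgP1E, 43.8 and 40.9 CPM with sgP1J, 5.42 and 8.35 CPM with sgDual2, and 3.73 and 5.83 CPM with sgDual3. The control guide gave 65.3 and 65.4 CPM. Its log2 difference was -3.08 (SE 0.18, adjusted p = 1.53e-07), and CRYM lies over it on the other strand. PRODH2, hydroxyproline dehydrogenase, ranged from 11.7 to 16.3 CPM in sgP1 and from 1.46 to 2.40 CPM in sgDual (log2 difference -2.92). HGD, homogentisate dioxygenase of tyrosine breakdown, was at 19.9 and 17.8 CPM with sgP1E but at 5.61 and 5.52 CPM with sgP1J, and at 1.25 to 2.48 CPM in sgDual. Its fold change thus depended on the guide, at -3.43 against sgP1E and -1.66 against sgP1J. ADIRF (-2.87) and PIK3AP1, an adaptor for PI3-kinase (-2.79), also differed between the sgP1 guides.

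The 8 largest rises started from low levels in sgP1. LY6S, a gene of the LY6 family of surface proteins, was at 0.380 to 1.49 CPM in sgP1, 8.07 and 9.56 CPM with sgDual2 and 16.1 and 19.7 CPM with sgDual3 (log2 difference 4.26, SE 0.48, adjusted p = 3.64e-05). LY6 genes are similar in sequence, so its reads may be shared with other members. CYP26B1, which breaks down retinoic acid (chromosome 2, 72129238 to 72148038), was between 0.710 and 0.839 CPM in all 4 sgP1 libraries. In sgDual it was at 8.78, 15.6, 4.95 and 11.1 CPM, a 12.8-fold higher mean (log2 difference 3.67, SE 0.32, adjusted p = 1.78e-06). CSF1, the macrophage growth factor M-CSF (chromosome 1, 109910242 to 109930992), went from 1.05 to 2.26 CPM in sgP1 to 8.78 to 16.6 CPM in sgDual (log2 difference 2.98).

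NTN4, the basement membrane protein netrin-4 (chromosome 12, 95657807 to 95791152), was at 5.19 to 6.53 CPM in sgP1 and at 38.8 to 43.2 CPM in sgDual. SYNPO, the actin-binding protein synaptopodin, was at 7.97 to 10.99 CPM in sgP1 and at 47.6 to 70.1 CPM in sgDual. TRIM29, a TRIM protein of stratified epithelium, was at 1.29 to 1.93 CPM in sgP1 and 8.67 to 17.7 CPM in sgDual. AOAH, an enzyme that removes acyl chains from lipopolysaccharide, rose from 0.847 to 1.74 CPM to 7.13 to 10.3 CPM. CORO6, a coronin, rose by 2.99 on the log2 scale and overlaps ANKRD13B on the other strand. None of the 8 rises differed between sgP1E and sgP1J at an adjusted p under 0.05. In each of the 8 the control guide was below the lowest sgDual library, for example at 2.66 and 2.06 CPM for NTN4.

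**Figure D3:**
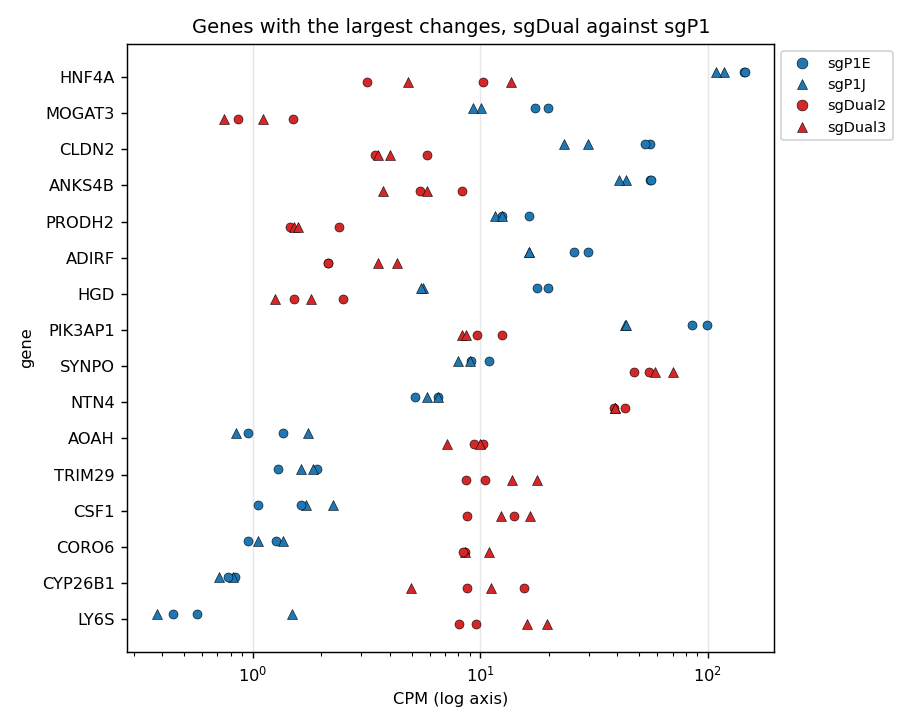
CPM (log axis) of the 8 largest falls and the 8 largest rises in each of the 4 sgP1 libraries (blue) and the 4 sgDual libraries (red), with circles for sgP1E and sgDual2 and triangles for sgP1J and sgDual3. No gene overlaps between the groups, which the choice of genes required, and among the falls HGD shows the widest gap between the sgP1 guides.

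Many brush border genes fell and none rose with both sgP1 guides. These genes build the microvilli of absorptive cells and their surface enzymes. Of 26 members tested, 13 were lower in sgDual and 0 were higher, beside 12% and 12.2% of all genes tested. The estimate was negative in 19 and positive in 7. Of the 7, 2 passed as higher with the 4 libraries of a target taken as replicates. The median log2 difference of the list was -0.76, against -0.01 over all genes tested. ANPEP, the peptidase of the microvillus surface (chromosome 15, 89784889 to 89815401), was at 322 and 198 CPM with sgP1E, 191 and 100 CPM with sgP1J, 22.6 and 23.1 CPM with sgDual2, and 41.7 and 34.0 CPM with sgDual3. The sgDual range was below the sgP1 range, and the log2 difference was -2.74 (SE 0.37, adjusted p = 0.000179). TMIGD1 fell by 2.60 on the log2 scale. MYO7B, the motor of the complex at microvillus tips, was at 43.6 to 87.1 CPM in sgP1 and 7.22 to 18.8 CPM in sgDual. MYO1A, the myosin that ties the actin core to the membrane, was at 78.0 to 85.0 CPM in sgP1 and at 17.9 to 28.3 CPM in sgDual, a log2 difference of -1.84 (SE 0.13, adjusted p = 2.66e-07). CDHR2 and USH1C, also of the tip complex, were chosen after their values were seen, so their falls add no separate support. CDHR2, the protocadherin of that complex, fell from 96.6 ± 7.19 to 21.9 ± 4.71 CPM. USH1C, its scaffold harmonin, fell from 126 ± 20.4 to 51.7 ± 3.06 CPM (both mean ± SD, n = 4 libraries each). In the alternatives that recomputed it, the count of lower brush border genes was between 13 and 15.

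The MYO1A promoter is shown because it carries a sequence that HNF4 proteins bind. Among falls of genes with a mean of at least 5 CPM and no overlap between the groups, it was the largest with a promoter in the reference table that held CAAAGTCCA on either strand. MUC13, which encodes a membrane mucin and fell from 259 ± 39.9 to 169 ± 38.2 CPM (log2 difference -0.61, SE 0.16, adjusted p = 0.00891), is shown beside it. Both are 300 bases from RefSeq (GRCh38.p14), written 5′ to 3′ on the minus strand, the strand of the gene, with the match to the motif's reverse complement in capitals. The match lies 30 bases before the start of MYO1A and 51 before that of MUC13.
MYO1A promoter, chr12:57050080-57050379: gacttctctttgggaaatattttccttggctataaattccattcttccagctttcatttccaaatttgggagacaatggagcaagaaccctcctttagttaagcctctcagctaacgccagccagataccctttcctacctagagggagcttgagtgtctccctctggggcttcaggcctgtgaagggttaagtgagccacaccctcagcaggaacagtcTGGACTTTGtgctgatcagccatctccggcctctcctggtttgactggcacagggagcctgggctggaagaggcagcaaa
MUC13 promoter, chr3:124934702-124935001: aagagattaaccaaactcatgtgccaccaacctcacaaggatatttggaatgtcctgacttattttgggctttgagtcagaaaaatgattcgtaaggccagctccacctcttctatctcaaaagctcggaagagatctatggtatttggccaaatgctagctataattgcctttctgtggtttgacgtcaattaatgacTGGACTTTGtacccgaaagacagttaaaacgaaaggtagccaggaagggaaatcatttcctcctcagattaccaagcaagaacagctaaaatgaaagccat
PDE11A, a phosphodiesterase (log2 difference -1.27), and the noncoding RNA MIR100HG (-1.02) were other such falls with a match, 118 and 114 bases before the start. The motif was in 135 of all 35116 promoters of the table (0.384%). It was in 11 of 2208 promoters of genes lower in sgDual (0.498%), 1 of 2426 of genes higher (0.0412%) and 46 of 11654 of tested genes not called (0.395%). Among genes lower by at least 1 on the log2 scale it was in 5 of 242 promoters (2.07%), which belong to 5 genes, and among genes higher by as much in 0 of 650. Of the 5 lower genes, CIDEB (-2.51) and CYP2B6 (-1.58) are those not named above and had a mean below 5 CPM. The table is not complete, and 1 gene can have several promoters. None of the 30 largest falls with a mean of at least 5 CPM and no overlap had a listed promoter with the motif. These 30 include HNF4A, MOGAT3, CLDN2, ANKS4B and PRODH2, and for some of them, such as HGD, no promoter is listed. These shares are a description of 9 exact letters in a 300-base window and were not tested.

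Genes of DNA replication and of mitosis were lower in sgDual almost throughout, by small amounts. Of 50 replication genes tested 38 fell and 0 rose, with a median log2 difference of -0.56, and all 50 estimates were negative. Of 46 mitosis genes 37 fell and 0 rose, with a median of -0.42, and all 46 estimates were negative. RFC4, a subunit of the clamp loader of the replication fork (chromosome 3, 186789880 to 186807058), was at 51.0 and 45.5 CPM with sgP1E, 50.6 and 47.9 CPM with sgP1J, 26.5 and 23.8 CPM with sgDual2, and 28.6 and 25.3 CPM with sgDual3. The groups were clearly apart, and the log2 difference was -0.90 (SE 0.07, adjusted p = 2.33e-07). RFC4 overlaps EIF4A2 on the other strand. RFC2, another subunit, was lower with both sgDual guides but more so with sgDual3 (27.8 and 29.1 CPM) than with sgDual2 (55.6 and 52.9 CPM), against 72.1 to 90.5 CPM in sgP1. GINS2, part of the replicative helicase, fell by 0.89 and MCM10, which activates that helicase, by 0.85 on the log2 scale.

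CDC20, the activator of the anaphase-promoting complex (chromosome 1, 43358955 to 43363203), was at 135 to 191 CPM in sgP1 and at 78.4 to 92.9 CPM in sgDual (log2 difference -0.92, SE 0.14, adjusted p = 0.000161). BIRC5, survivin, was at 77.0 to 90.7 CPM in sgP1 and 51.9 to 57.9 CPM in sgDual, and the mitotic kinase AURKA at 159 to 186 and 106 to 121 CPM. MKI67, the gene of the proliferation marker Ki-67, chosen after its value was seen, fell by 0.30 on the log2 scale with ranges that overlapped. Without sgP1E replicate 1, 25 replication genes and 24 mitosis genes were called lower.

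Among 24 regulators of the G1 phase, 5 rose and 2 fell, beside 12.2% and 12% of all genes tested. CDKN2B, the CDK4 and CDK6 inhibitor p15 (chromosome 9, 22002903 to 22009363), was at 39.4 and 45.3 CPM with sgP1E, 26.9 and 41.9 CPM with sgP1J, 114 and 135 CPM with sgDual2, and 96.7 and 120 CPM with sgDual3. All sgDual libraries were above all sgP1 libraries, with a log2 difference of 1.60 (SE 0.15, adjusted p = 6.02e-06), and the antisense gene CDKN2B-AS1 overlaps it. RBL1, the pocket protein p107, fell by 0.58. CDK6 was at 50.2 CPM in both sgP1E libraries, 115 and 86.6 CPM with sgP1J, and 120 to 126 CPM in sgDual, so that its change was 1.29 against sgP1E and 0.28 against sgP1J on the log2 scale. The count of 5 ran from 2 to 8 over the alternatives, and was 8 with a replicate block (5 fell), 2 without sgP1J replicate 1, without sgDual2 replicate 2 or without sgDual3 replicate 2, and 3 without sgP1E replicate 1 or without sgP1J replicate 2.

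Ribosome biogenesis genes also tended lower, with 16 of 38 lower, 0 higher, a median of -0.44 (-0.32 against sgP1E and -0.53 against sgP1J) and 38 negative estimates. RRP9, which processes ribosomal RNA, was at 45.4 to 74.3 CPM in sgP1 and 31.3 to 38.1 CPM in sgDual. BOP1, which is needed for the large subunit, fell by 0.73 on the log2 scale (SE 0.10, adjusted p = 4.06e-05). The number called lower was 3 without sgP1E replicate 1 and 32 with a replicate block. Nuclear genes of oxidative phosphorylation were lower in 11 of 43 and higher in 0, with a median of -0.22 (-0.09 against sgP1E and -0.36 against sgP1J), and 20 of the 43 differed between sgP1E and sgP1J. ATP5MC1, a subunit of the ATP synthase ring, was at 43.2 to 48.7 CPM in sgP1 and 24.9 to 29.2 CPM in sgDual (log2 difference -0.70, adjusted p = 2.10e-06). The number called was 4 without sgP1E replicate 1 and 7 without sgDual3 replicate 2. The mitochondrially encoded share of counts was the higher one in sgDual, as given above, and its part in these results was not tested.

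Metabolic genes moved in both directions. Of 26 genes of glycolysis and gluconeogenesis 11 fell and 3 rose (6 fell without sgP1E replicate 1). SLC2A3, a glucose transporter, was at 1.44 and 1.60 CPM with sgP1E, 3.01 and 3.52 CPM with sgP1J and 0.607 to 0.895 CPM in sgDual. The control guide gave 0.444 and 0.417 CPM, below every sgDual library, so SLC2A3 was lower in sgDual only relative to a raised level in sgP1. SLC16A3, the lactate exporter MCT4, rose by 0.96 on the log2 scale (SE 0.12, adjusted p = 2.28e-05) and overlaps CSNK1D on the other strand. ENO2 and ALDOC, the enolase and aldolase forms typical of brain, rose by 0.89 and 0.77, and ENO2 overlaps LRRC23 on the same strand. LDHA, lactate dehydrogenase A, chosen after its value was seen, fell from 2049 ± 118 to 1406 ± 158 CPM (SD, n = 4 libraries each).

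Of 31 genes of fatty acid oxidation and ketogenesis 6 fell and 2 rose, beside 12% and 12.2% of all genes tested (6 rose with a replicate block). ACSL5, an acyl-CoA synthetase of intestine and liver (chromosome 10, 112374018 to 112428380), was at 225 to 430 CPM in sgP1 and 132 to 171 CPM in sgDual (log2 difference -1.09, SE 0.18, adjusted p = 0.000392). PDK4, which holds back pyruvate oxidation, was at 19.3 to 40.8 CPM in sgP1 and 54.2 to 84.6 CPM in sgDual. Fatty acid synthesis genes rose in 5 and fell in 4 of 23, with FADS3 (1.21) and ME1, malic enzyme (1.18), among the rises and HACD2 (-0.41) the largest fall. Of 25 cholesterol synthesis genes 3 fell, the same share as among all genes, and 0 rose, while 6 fell with a replicate block.

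Of 31 drug metabolism genes 5 were higher and 5 lower, near the shares of all genes tested (12.2% and 12%). ABCC2, an apical export pump (chromosome 10, 99782640 to 99852594), was at 316 and 249 CPM with sgP1E, 202 and 132 CPM with sgP1J, 88.3 and 66.6 CPM with sgDual2 and 58.8 and 45.0 CPM with sgDual3 (log2 difference -1.80, SE 0.27, adjusted p = 0.000323). The P450 enzyme CYP2B6 fell by 1.58. EPHX1, microsomal epoxide hydrolase (chromosome 1, 225810092 to 225845563), was at 66.0 to 82.6 CPM in sgP1 and 212 to 230 CPM in sgDual (log2 difference 1.57, SE 0.09, adjusted p = 1.90e-08). It overlaps TMEM63A on the other strand. The count of higher genes was 3 without sgP1E replicate 1 and 8 with a replicate block.

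Endoderm lineage factors did not move together, with 6 of 25 higher and 5 lower and a median of 0.09 (0.21 against sgP1E and 0.15 against sgP1J). NR1I2, the xenobiotic receptor PXR (chromosome 3, 119780484 to 119818485), was at 86.9 and 93.8 CPM with sgP1E, 51.6 and 53.7 CPM with sgP1J and 12.8 to 17.7 CPM in sgDual. The groups did not overlap, and the log2 difference was -2.21 (SE 0.19, adjusted p = 3.03e-06). FOXA1, a pioneer factor of endoderm, rose from 2.30 to 5.71 CPM to 9.82 to 21.4 CPM. PROX1 rose by 1.73 on the log2 scale. GATA6, a factor of the classical subtype chosen after its value was seen, rose from 64.5 ± 8.0 to 87.8 ± 5.30 CPM (SD, n = 4 libraries each).

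Mucins and secretory products were higher in 9 and lower in 3 of 23, with a median log2 difference of 0.97. The median was 1.42 against sgP1E and 0.43 against sgP1J, and 8 of the 23 differed between the sgP1 guides. Most of the genes that rose were at a few CPM even in sgDual. MUC4, a membrane mucin, was at 0.0780 to 0.271 CPM in sgP1 and 2.12 to 2.86 CPM in sgDual (log2 difference 3.94, SE 0.35, adjusted p = 1.33e-06). TFF1, a trefoil peptide, was at 0.226 to 0.876 CPM in sgP1 and 2.10 to 2.64 CPM in sgDual, and DMBT1, a mucin-like scavenger receptor, at 0.263 to 0.963 and 1.94 to 3.76 CPM. MUC5AC, the gel-forming mucin of gastric epithelium, was higher mainly with 1 guide: it was at 7.37 and 6.40 CPM with sgDual3 but at 0.804 and 1.13 CPM with sgDual2, within reach of the 0.226 to 1.02 CPM of sgP1. Without guide sgDual3 its adjusted p was 0.576.

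MUC17, a membrane mucin of the intestinal surface (chromosome 7, 101020072 to 101058745), went the other way. It was at 176 and 172 CPM with sgP1E, 180 and 108 CPM with sgP1J, 29.4 and 68.0 CPM with sgDual2, and 37.1 and 70.7 CPM with sgDual3. All sgDual libraries were lower, with a log2 difference of -1.63 (SE 0.27, adjusted p = 0.000664). The control guide gave 900 and 823 CPM, so the sgP1 libraries were already well below it.

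Genes of the classical tumour subtype rose in 6 and fell in 3 of 21, beside 12.2% and 12% of all genes tested, with a median of 0.01. Against sgP1E the median was 0.48 and against sgP1J 0.29, and 12 of the 21 differed between the sgP1 guides. ST6GALNAC1, which adds sialic acid to mucin glycans, was at 0.0975 and 0.151 CPM with sgP1E, 0.438 and 1.10 CPM with sgP1J and 1.29 to 3.98 CPM in sgDual. TFF2, a trefoil peptide of gastric glands, was at 1.54 to 3.36 CPM in sgP1 and 6.23 to 9.82 CPM in sgDual, whereas MYO1A of the same list fell. Genes of the basal-like subtype rose in 5 and fell in 2 of 15 (4 fell with a replicate block). DHRS9, a retinol dehydrogenase, was at 58.1 to 104 CPM in sgP1 and 228 to 251 CPM in sgDual. KRT7, a ductal keratin, was at 1.35 to 2.45 CPM in sgP1 and higher with both sgDual guides. It was at 4.10 and 3.44 CPM with sgDual2 and at 8.44 and 8.47 CPM with sgDual3, and these guides differed at an adjusted p under 0.05. SCEL, sciellin, rose by 2.68 on the log2 scale. Squamous keratin and envelope genes rose in 7 and fell in 1 of 18. DSC3, a desmosomal cadherin, was at 16.1 to 22.0 CPM in sgP1 and 44.8 to 56.6 CPM in sgDual (log2 difference 1.39, SE 0.12, adjusted p = 1.16e-06). PI3, the protease inhibitor elafin, was at 0.613 to 0.876 and 2.89 to 4.16 CPM.

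Adhesion genes of epithelial junctions were higher in 7 and lower in 3 of 29, beside 12.2% and 12% of all genes tested. CLDN2, described above, was the largest fall. CDH1, E-cadherin (chromosome 16, 68737225 to 68835548), was at 25.7 and 43.3 CPM with sgP1E, 13.3 and 20.1 CPM with sgP1J, 71.8 and 61.2 CPM with sgDual2 and 77.3 and 73.2 CPM with sgDual3. The sgDual libraries were all above the sgP1 libraries (log2 difference 1.47, SE 0.29, adjusted p = 0.00217). The control guide gave 35.6 and 64.0 CPM, so that sgP1J lay below the control, and so did sgP1E within each replicate number. The sgP2 libraries were at 55.7 to 67.3 CPM. The sgDual range thus overlapped that of sgP2, and its lowest library was below the higher control library. CLDN4, a sealing claudin, was at 233 to 319 CPM in sgP1 and 514 to 558 CPM in sgDual. CGN, cingulin of tight junctions, was lower, at 132 to 153 against 69.6 to 86.5 CPM. The count of higher junction genes was 3 without sgP1E replicate 1, and that of lower ones was 5 with a replicate block. Of 25 mesenchymal genes 1 rose and 1 fell (4 and 3 with a replicate block). The fall was TGFBI, a matrix protein, from 529 to 644 CPM down to 319 to 408 CPM, and the rise was MMP1, whose ranges overlapped (edgeR adjusted p = 0.0444, or 0.0582 with a replicate block). Of 12 laminin-332 and hemidesmosome genes 2 rose, ITGA2 (0.64) and CD151 (0.48), and COL17A1 fell by 0.43, while 2 fell with a replicate block. These counts were near the shares of all genes tested (12.2% and 12%).

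**Figure D4:**
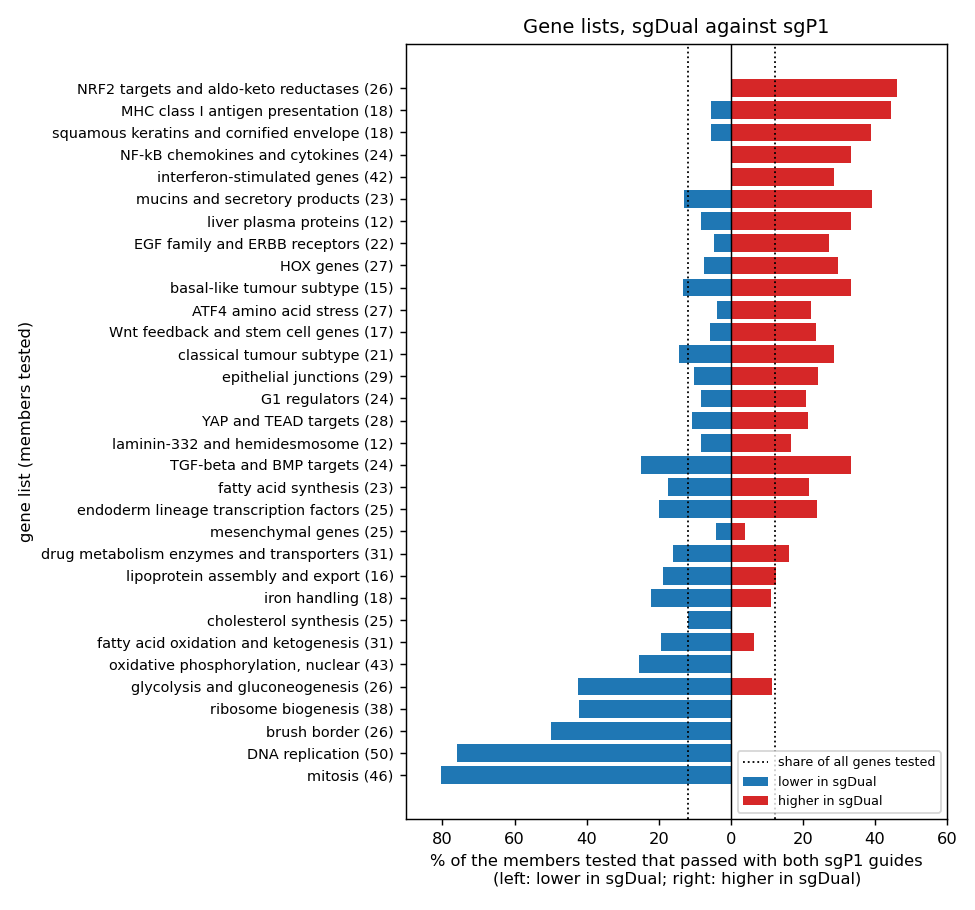
For each gene list, the percentage of its tested members that fell (left, blue) or rose (right, red) in sgDual with both sgP1 guides; the dotted lines give the same for all genes tested (12% and 12.2%). Replication, mitosis, brush border and ribosome biogenesis lists have falls and no rises, and the NRF2, NF-kB and interferon lists have rises and no falls.

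Antioxidant genes that NRF2 controls rose in 12 of 26 and fell in 0, with a median of 0.49 (0.33 against sgP1E and 0.56 against sgP1J). GCLM, the modifier subunit of the enzyme that limits glutathione synthesis (chromosome 1, 93885205 to 93909456), was at 9.23 to 12.7 CPM in sgP1 and 18.6 to 25.3 CPM in sgDual (log2 difference 1.02, SE 0.21, adjusted p = 0.00182). GPX2, a glutathione peroxidase of gut epithelium, was at 0.585 to 1.10 CPM in sgP1 and 2.27 to 4.59 CPM in sgDual, and its gene overlaps CHURC1. ALDH3A1, an aldehyde dehydrogenase, was at 75.2 and 84.7 CPM with sgP1E, 40.6 and 50.3 CPM with sgP1J and 142 to 160 CPM in sgDual. FTH1, the ferritin heavy chain (chromosome 11, 61959718 to 61967660), was at 3267 to 3984 CPM in sgP1 and 6193 to 7666 CPM in sgDual (log2 difference 0.87, SE 0.08, adjusted p = 2.10e-06), and its many pseudogenes may share reads. Among 18 genes of iron handling, FTH1 was 1 of 2 that rose and 4 fell, beside 12.2% and 12% of all genes tested. Among the falls was TFRC, the transferrin receptor, at 549 to 753 CPM in sgP1 and 460 to 477 CPM in sgDual.

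Stress genes downstream of ATF4, which responds to shortage of amino acids and to unfolded protein, rose in 6 and fell in 1 of 27 (11 rose with a replicate block). GDF15, a secreted stress cytokine (chromosome 19, 18374731 to 18389176), was at 7.20 and 14.2 CPM with sgP1E, 4.82 and 7.91 CPM with sgP1J, 31.2 and 54.1 CPM with sgDual2 and 20.6 and 33.3 CPM with sgDual3. The groups were apart, with a log2 difference of 2.03 (SE 0.42, adjusted p = 0.00272). DDIT3, the factor CHOP, was at 10.9 to 15.6 CPM in sgP1 and 25.5 to 31.0 CPM in sgDual, and ATF3 at 1.78 to 2.93 and 5.88 to 7.84 CPM. SLC6A9, a glycine transporter, rose by 1.79. PSPH, the last enzyme of serine synthesis, fell by 0.52.

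Interferon-stimulated genes rose in 12 of 42 and fell in 0, with a median of 0.49 (0.32 against sgP1E and 0.56 against sgP1J) and 38 positive estimates. IFI27 was at 1.02 to 1.33 CPM in sgP1 and 2.86 to 4.55 CPM in sgDual. IFIH1, the RNA sensor MDA5 (chromosome 2, 162267079 to 162318703), was at 4.29 to 7.56 CPM in sgP1 and 11.4 to 13.4 CPM in sgDual (log2 difference 1.06, SE 0.24, adjusted p = 0.00301). XAF1 and RSAD2 rose by 1.16 and 1.00. In this list 7 genes were called without sgP1E replicate 1, and likewise 7 without sgDual2 replicate 2 or without sgDual3 replicate 2. Genes of MHC class I antigen presentation rose in 8 and fell in 1 of 18. B2M, the light chain of class I molecules (chromosome 15, 44711487 to 44718877), was at 600 and 635 CPM with sgP1E, 390 and 491 CPM with sgP1J and 857 to 941 CPM in sgDual. TAPBP, tapasin, which loads peptides, rose by 0.84. NLRC5, the transcriptional activator of class I genes, fell, from 17.0 to 21.2 CPM down to 11.03 to 14.4 CPM.

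NF-kB chemokines and cytokines rose in 8 and fell in 0 of 24. CSF1 led them. LCN2, the iron-binding lipocalin of inflamed epithelium (chromosome 9, 128149071 to 128153455), was at 34.4 and 53.9 CPM with sgP1E, 52.1 and 90.9 CPM with sgP1J, 319 and 350 CPM with sgDual2 and 314 and 360 CPM with sgDual3. All sgDual libraries were above the highest sgP1 library, and the log2 difference was 2.54 (SE 0.32, adjusted p = 9.69e-05). IL1B, interleukin 1 beta, rose from 1.29 to 1.79 CPM to 3.52 to 4.14 CPM. RELB, an NF-kB subunit chosen after its value was seen, rose from 7.64 ± 0.559 to 15.5 ± 0.723 CPM (SD, n = 4 libraries each).

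**Figure D5:**
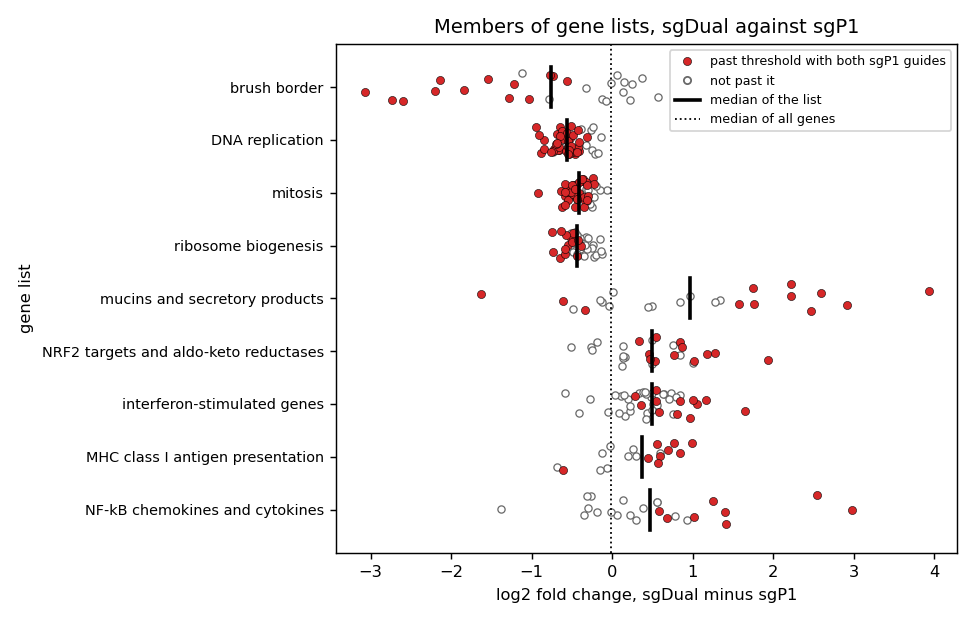
Log2 fold change (sgDual against sgP1) of each tested member of 9 gene lists, filled where it was called with both sgP1 guides and open where it was not, with the list's median (black bar) and the median of all genes (dotted line, -0.01). Replication and mitosis genes form a narrow group below 0, brush border genes reach -3.08 (ANKS4B), and mucin genes spread from -1.63 (MUC17) to 3.94 (MUC4).

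Among signalling genes, those of the EGF family rose in 6 and fell in 1 of 22 (2 fell with a replicate block), beside 12.2% and 12% of all genes tested. NRG4, an ERBB4 ligand, was at 4.79 to 6.04 CPM in sgP1 and 11.8 to 13.7 CPM in sgDual, and EREG, epiregulin, an EGFR ligand, fell from 41.6 to 83.0 CPM down to 27.3 to 34.0 CPM. YAP and TEAD targets rose in 6 and fell in 3 of 28. IGFBP3, the main binding protein of insulin-like growth factors in serum (chromosome 7, 45912245 to 45921874), was at 498 and 878 CPM with sgP1E, 905 and 1597 CPM with sgP1J, 3918 and 4072 CPM with sgDual2 and 4942 and 5215 CPM with sgDual3. The groups were far apart, with a log2 difference of 2.23 (SE 0.29, adjusted p = 0.00012). NT5E, the ectonucleotidase CD73, moved the other way, from 225 to 415 CPM in sgP1 to 116 to 149 CPM in sgDual (log2 difference -1.30).

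TGF-beta and BMP genes rose in 8 and fell in 6 of 24. BMP4 was at 163 to 196 CPM in sgP1 and 344 to 421 CPM in sgDual (log2 difference 1.07, SE 0.08, adjusted p = 2.55e-07), whereas ID2, a target of BMP signalling that blocks differentiation factors, fell by 1.35. Wnt feedback and stem cell genes rose in 4 and fell in 1 of 17. TNFRSF19, a Wnt-induced receptor, rose by 1.05, and WNT7B was at 85.7 to 134 CPM in sgP1 and 171 to 206 CPM in sgDual. HOX genes rose in 8 and fell in 2 of 27. HOXA3 was at 23.7 to 36.7 CPM in sgP1 and 52.1 to 64.9 CPM in sgDual and overlaps HOXA-AS2 and HOXA-AS3. The number of HOX genes that rose was 4 without sgP1E replicate 1, 1 without sgP1J replicate 1 and 5 without sgP1J replicate 2.

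Genes typical of hepatocytes were in part too low to test in these cells. Of 26 genes of lipoprotein assembly 16 were tested, 2 rose and 3 fell, near the 12.2% and 12% of all genes tested. MOGAT3 was the largest fall. PLTP, the phospholipid transfer protein, was the largest rise, from 6.92 to 12.7 CPM to 25.2 to 40.4 CPM. Of 44 liver plasma protein genes 12 were tested, 4 rose and 1 fell. The fall was F12, coagulation factor XII, at 12.4 to 24.1 CPM in sgP1 and 9.19 to 10.3 CPM in sgDual. F5, coagulation factor V, rose by 2.47 on the log2 scale against sgP1E but by 0.73 against sgP1J.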

How the data were processed

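Poly(A) RNA was sequenced as paired-end reads from directional libraries, per the labels' protocols. The deposited table holds whole-number counts per gene for 14 AsPC-1 libraries, not normalized by the authors, for 62754 Ensembl genes, of which 99.91% matched a symbol. The submitters' processing notes name STAR 2.7.9a, cutadapt 1.16, featureCounts 1.6.3, DESeq2 1.36.0 and GRCh38. Annotation, filters and strand setting are not given in the sources used here. The tables of the other lines were not used.

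Counts were tested with edgeR 4.0.16 (R 4.3.3): filterByExpr by target, TMM scaling, robust quasi-likelihood F test, Benjamini-Hochberg over 16992 genes, threshold 0.05. All 14 libraries shared 1 fit, by target or by guide. Steps were tested on simulated data that held no effect of guide or replicate number, so the fits were not tested against such effects. Named genes are HNF4A, the 8 largest rises and 8 largest falls (mean of at least 5 CPM, called by both fits, no overlap), and up to 4 called members of each list with at least 1 CPM in the higher group, plus the largest opposite change. A few genes the rule names are not reported here. The comparison, members and lists were chosen with earlier results of these data known. Coordinates are from GENCODE v29 (GRCh38), which holds none for LY6S. Replicates of 1 guide differed beyond sampling noise (chi-square per degree of freedom 5.82 to 24.1). The labels do not say that replicate numbers mark a shared batch, but the difference between replicate 1 and 2 correlated at 0.257 to 0.750 in all 21 pairs of guides (10552 genes), so fits with the number as a block are given where they move a count by over 1.5 times. Alternatives covered scaling, filter, tool, samples, blocks and left-out libraries or guides. Gene lists were described by counts and medians, with no set test.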

Additional observations from a re-analysis of the deposited data

Results flagged for a closer look

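In 138 named genes, each with 4 sgP1 and 4 sgDual libraries (276 groups), 10 groups held a library whose gap to its nearest neighbour, as a share of the group's range, was above Dixon's 95% critical value for 4 samples. Chance alone would give about 1 in 20 groups. In sgDual, PRODH2 was at 2.40 CPM in sgDual2 replicate 2 against 1.46 to 1.58 CPM in the others, and NTN4 at 43.2 CPM in that library against 38.8 to 39.1 CPM. CORO6 was at 10.9 CPM in sgDual3 replicate 2 against 8.44 to 8.59 CPM, and PSPH at 28.9 CPM in that library against 30.3 to 30.4 CPM. PI3 was at 2.89 CPM in sgDual3 replicate 1 against 4.04 to 4.16 CPM, and CYP2C18 at 0.115 CPM in sgDual2 replicate 1 against 0.289 to 0.299 CPM. In sgP1, MUC17 was at 108 CPM in sgP1J replicate 2 against 172 to 180 CPM, and ATP5MC1 at 48.7 CPM in that library against 43.2 to 44.0 CPM. MIA3 was at 38.5 CPM in sgP1E replicate 1 against 44.1 to 44.7 CPM, and TFR2 at 9.75 CPM in sgP1J replicate 1 against 7.83 to 7.94 CPM. For these 10 genes the outlying library stayed on its own group's side of the other group. The choice of PRODH2, NTN4 and CORO6 required this, and the choice of the others as called genes made it likely.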

How the results depend on the processing

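No named gene changed direction under any alternative run. The named genes were chosen as called by target and with both sgP1 guides, so a change of direction was unlikely from the start. A change of 1 or more on the log2 scale was reached by 1143 of the called genes by target (763 higher, 380 lower), 691 when asked of the contrast with sgP1E and of that with sgP1J (466 higher, 225 lower), 619 between sgP1E and sgP1J and 73 between sgDual2 and sgDual3. Calls between the sgDual guides were 417 with no filter on low counts. Leaving out 1 library gave 5385 to 6649 genes by target, and 2469 to 4016 with both sgP1 guides (1344 to 2003 higher, 1125 to 2013 lower), where the lowest values came without sgP1E replicate 1. It gave 1492 to 2241 genes between the sgP1 guides and 54 to 166 between the sgDual guides. Without guide sgDual2, 2113 genes were lower by target, and without guide sgDual3 4320 differed and 2105 were lower. Asking each of the 4 pairs of 1 sgDual and 1 sgP1 guide to pass left 2565 genes (1365 higher, 1200 lower). DESeq2 1.42.0 called 6553 by target and 3788 with both sgP1 guides, and guide as a block (limma, correlation 0.237) called 5371. Total counts in place of TMM moved the median of all genes from -0.01 to -0.04, with 1841 higher and 2433 lower with both sgP1 guides. By target, more genes were higher than lower with guide as a block (2766 and 2605) and with the 8 sgDual and sgP1 libraries alone (2861 and 2776). The cause of these shifts was not tested, except that a fold limit by construction leaves fewer calls.

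With a replicate block, 7123 genes differed by target, 5533 with both sgP1 guides, 4616 between the sgP1 guides and 558 between the sgDual guides; of the calls of single named genes it changed that of MMP1 alone. Of 770 recounts of gene lists, 665 stayed within 1.5 times the reported count and 105 did not. Calls of single genes were lost most often for MMP1 and FGFBP1 (11 alternatives each), PLIN2 (9), BMP2 (8) and MUC5AC (7).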

Other observations

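Genes of retinoid uptake, synthesis and breakdown were looked at after CYP26B1 had been seen among the largest rises, so their count is a description of genes chosen after seeing values. Of 19 such genes 15 were tested, 10 rose with both sgP1 guides and 0 fell, beside 12.2% and 12% of all genes tested. The median log2 fold change was 1.16. The 10 include CYP26B1 itself and DHRS9, both described above. STRA6, the membrane receptor for retinol-binding protein, was at 0.800 and 1.38 CPM with sgP1E, 1.37 and 2.23 CPM with sgP1J, 7.15 and 6.53 CPM with sgDual2 and 8.77 and 8.33 CPM with sgDual3 (log2 fold change 2.44). RDH10, which oxidises retinol, was at 73.6 to 81.8 CPM in sgP1 and 205 to 249 CPM in sgDual (log2 fold change 1.51, adjusted p = 1.04e-08, edgeR's quasi-likelihood test). RARG, a retinoic acid receptor, was at 42.9 to 53.1 CPM in sgP1 and 88.7 to 102 CPM in sgDual, and RARRES1, a gene known to respond to retinoids, at 3.79 to 12.6 and 18.5 to 28.9 CPM. ALDH1A1, a retinaldehyde dehydrogenase, was at 138 and 153 CPM with sgP1E, 48.4 and 58.9 CPM with sgP1J and 39.0 to 62.6 CPM in sgDual, and was not called.

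Members of the TM4SF family of membrane proteins, also picked after seeing values, were split. TM4SF4 fell from 87.2 to 159 CPM in sgP1 to 19.9 to 35.2 CPM in sgDual, TM4SF5 from 16.1 to 26.8 CPM to 5.01 to 7.22 CPM and TM4SF20 from 7.06 to 17.8 CPM to 1.10 to 3.26 CPM. TM4SF1 and TM4SF18 rose, by 0.50 and 0.80 on the log2 scale. The hydrogen peroxide-producing oxidase DUOX2 was at 13.8 and 22.2 CPM with sgP1E, 2.60 and 2.84 CPM with sgP1J and 33.9 to 51.0 CPM in sgDual, and its maturation factor DUOXA2 was at 0.438 to 4.18 CPM in sgP1 and 4.77 to 8.29 CPM in sgDual. The surface carbonic anhydrases CA9 and CA12 fell, CA9 from 25.0 to 86.0 CPM in sgP1 to 9.28 to 13.4 CPM in sgDual.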
